A study of Mus musculus with 13 samples.

Results

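Immediate early genes are the subject here: Fos, Fosb, Jun, Junb, Egr1, Egr3, Arc, Npas4, Nr4a1 and Ier2. They are 10 genes of the 22682 gene symbols shared by all 13 libraries, chosen by name, with earlier results of these data known. All 10 were present in every library's table, and all 10 passed the filter on low counts among the 12 immunopurified libraries. The medial habenula, a small epithalamic nucleus rich in cholinergic neurons, was dissected from adult mice of more than 8 weeks that carried the transgene Chat-TRAP DW167. In translating ribosome affinity purification (TRAP), ribosomes tagged with GFP in the cells that use the transgene's Chat promoter are precipitated with anti-GFP beads, and the mRNA they carry is sequenced. The wild-type group held 6 immunopurified (IP) libraries of Chat-TRAP DW167 mice, and the knockout group 6 IP libraries of Gpr151-KO::Chat-TRAP DW167 mice. Unpurified homogenate (input) of Chat-TRAP DW167 mice gave 1 library, so every group carried the transgene. Each library pooled 4 mice, except libraries 852 and 855, which pooled 3. The labels describe live decapitation and dissection on ice and give no stimulus or treatment. Saline appears in most table names, with saccharin added for the input, so whether input and IP animals were handled alike is not known. In bulk RNA of this kind, fewer cells of a type and less RNA per cell cannot be told apart.

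Immediate early genes are transcribed within minutes of synaptic activity, calcium entry or growth factor signals, without new protein synthesis, and their short-lived mRNAs decay soon after. In neurons, cyclic AMP response element binding protein and serum response factor, which stand ready on the DNA, are phosphorylated by kinases of the calcium, cyclic AMP and MAP kinase pathways and start this transcription. Most of the encoded proteins are transcription factors that act on later genes, and because of their speed these transcripts are widely used to mark recently active neurons. Glial and vascular cells can induce several of them too.

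The 10 genes fall into a few protein classes. Fos (chr12:85473890-85477273, forward strand, GRCm38) and Fosb (chr7:19302696-19310051, reverse strand) encode Fos proteins. These pair with the Jun proteins of Jun (chr4:95049034-95052222, reverse strand) and Junb (chr8:84974484-84978718, reverse strand) to form the transcription factor AP-1. Egr1 and Egr3 (chr14:70077203-70082614, forward strand) encode zinc finger transcription factors. Npas4 (chr19:4984355-4990316, reverse strand) encodes a basic helix-loop-helix PAS factor that is induced in neurons by calcium entry. Nr4a1 (chr15:101254269-101274795, forward strand) encodes an orphan nuclear receptor. Arc (chr15:74669083-74672570, reverse strand) encodes a capsid-like protein of dendrites and synapses that takes part in the removal of AMPA receptors. Ier2 (chr8:84661331-84662852, reverse strand) encodes a small nuclear protein. In the GENCODE M21 annotation, exons of Junb share 173 bases with the oppositely oriented Prdx2, and exons of Jun share 232 bases with the antisense gene Junos, so their counts are less certain than those of the other 8.

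Promoters of 6 of the 10 genes were taken from RefSeq (GRCm38.p6), namely those of Fos, Fosb, Jun, Junb, Npas4 and Nr4a1. Those of the other members were not examined. The 250 bases before the start site are shown for Fos and Jun, whose levels had the same rank order over the later libraries described below, and for Npas4 and Nr4a1, whose rank orders differed from theirs. Sequences run 5′ to 3′ on the gene's strand, and capitals mark TGACG on either strand, the core of the cyclic AMP response element (TGACG reads CGTCA on the other strand).
Fos, chr12:85473640-85473889, forward strand: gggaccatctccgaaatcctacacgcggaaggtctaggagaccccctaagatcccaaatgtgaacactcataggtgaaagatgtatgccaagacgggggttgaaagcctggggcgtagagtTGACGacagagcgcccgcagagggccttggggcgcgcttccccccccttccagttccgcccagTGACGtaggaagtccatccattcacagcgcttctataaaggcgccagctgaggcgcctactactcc
Jun, chr4:95052223-95052472, reverse strand: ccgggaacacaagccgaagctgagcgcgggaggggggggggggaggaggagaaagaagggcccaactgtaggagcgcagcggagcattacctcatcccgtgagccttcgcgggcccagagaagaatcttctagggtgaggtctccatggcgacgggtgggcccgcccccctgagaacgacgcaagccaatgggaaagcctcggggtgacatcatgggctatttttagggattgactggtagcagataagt
Npas4, chr19:4989972-4990221, reverse strand: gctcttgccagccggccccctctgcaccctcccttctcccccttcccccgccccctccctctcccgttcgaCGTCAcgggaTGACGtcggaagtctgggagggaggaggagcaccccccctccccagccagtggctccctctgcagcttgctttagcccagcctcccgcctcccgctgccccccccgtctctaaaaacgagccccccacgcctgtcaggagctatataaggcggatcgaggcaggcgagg
Nr4a1, chr15:101266596-101266845, forward strand: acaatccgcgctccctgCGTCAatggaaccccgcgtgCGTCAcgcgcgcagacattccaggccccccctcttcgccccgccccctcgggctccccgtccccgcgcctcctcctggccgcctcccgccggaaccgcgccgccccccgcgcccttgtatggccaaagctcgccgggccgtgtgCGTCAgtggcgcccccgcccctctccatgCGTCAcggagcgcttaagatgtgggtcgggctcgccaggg
The core was found in 5 of the 6 promoters, and in 17.8% of 32851 RefSeq promoters cut to the same length. Fos held 2 copies, Npas4 2, Nr4a1 4, Fosb 1 and Junb 1, while the Jun window held none. The whole palindrome TGACGTCA (1.55% of all promoters), the AP-1 site TGACTCA (4.46%), the Egr site GCGTGGGCG (0.536%) and the serum response element (1.47%) were each searched on both strands and matched in none of the 6 windows. For Npas4 and Nr4a1 the RefSeq start lies within the longer GENCODE gene. A match is a description of letters in these windows and not a measured site.

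IP libraries held 28375912 to 64388596 counts over genes and the input 54701790, and a gene with no count could still reach 3 counts, which is 0.0502 to 0.121 CPM (counts scaled to an equal library total) depending on the IP library. These limits cover counting error only. Gpr151 stood at 382 to 589 CPM in the wild-type and 121 to 212 CPM in the knockout IP libraries. The summed level of 13 medial habenula markers was 5464 CPM or more in every IP library and 1090 CPM in the input, and 12 of the 13 were at least 2 times above the input in every wild-type IP library. Library numbers fall into 3 sets, each with as many knockout as wild-type IP libraries: the 600s set (682 and 683), the 800s set (852, 855 and the input) and the 1000s set of 8 libraries (1091 to 1094 wild type, 1099 to 1102 knockout). The labels do not say what the sets stand for. Libraries 1091, 1099 and 1102 were the highest of the 12 IP libraries in non-neuronal markers, and leaving them out was chosen after seeing the data. The mean log2 CPM of those markers was 2.57, 3.32 and 3.11 there and 0.431 to 2.01 in the others. Genotype and set differences of several members are given with and without these 3 libraries. Levels, comparisons with the input, SDs between pools and correlations are not given without them. The correlations are repeated without the 2 libraries farthest from the median, which does not leave out all 3.

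Per length, Egr1 and Arc were the highest of the 10 members in the purified RNA. On the scale of CPM per kilobase of exon (RPKM), the wild-type IP mean of Egr1 was 29.7 ± 8.49 (SD, n = 6) and that of Arc 10.3 ± 1.61. Fos followed at 5.24 ± 1.94, Nr4a1 at 3.33 ± 0.788 and Jun at 2.72 ± 1.23. The ranges over the 6 libraries did not overlap between Egr1 and Arc or between Arc and Fos, whereas from Fos downward the ranges of all neighbours in the order overlapped. The lower end held Ier2 (1.13 ± 0.516 RPKM), Npas4 (0.648 ± 0.540), Junb (0.598 ± 0.312), Fosb (0.508 ± 0.217) and Egr3 (0.159 ± 0.108). In the input, Egr1 was again first at 67.7 RPKM, but Fos followed at 22.5, then Jun at 11.9 and only then Arc at 6.22.

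Fos, the reference marker of neuronal activity, ran from 6.09 through a median of 12.3 to 19.4 CPM in the wild-type IP libraries and from 6.63 through 14.5 to 38.95 CPM in the knockout ones. The 2 lowest Fos values came from the 600s set and the 2 highest from knockout libraries 1099 and 1102, and the groups overlapped below 19.4 CPM. Fosb, whose truncated product accumulates under repeated stimulation, spanned 1.61, 3.06 and 4.85 CPM (lowest, median, highest) in wild type and 2.57, 4.14 and 9.16 CPM in knockout. Jun, the partner of Fos in AP-1, spanned 4.43, 8.12 and 14.6 CPM in wild type and 7.51, 11.7 and 23.3 CPM in knockout. The same 2 knockout libraries were highest for Fosb and Jun. Junb spanned 0.665, 1.09 and 2.54 CPM in wild type and 0.737, 1.14 and 2.40 CPM in knockout, and its high values all belonged to the 600s and 800s sets.

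Egr1 was the most abundant of the 10, with 62.8, 139.7 and 172 CPM (lowest, median, highest) in wild type and 86.9, 120.3 and 173 CPM in knockout. Its lowest value in each group was from the 600s set. Egr3, a relative of Egr1, was rare, with 0.0805, 0.888 and 1.20 CPM in wild type and 0.586, 1.54 and 3.19 CPM in knockout. The lowest Egr3 level rested on 2 counts in library 852 (exact Poisson 95% interval 0.00975 to 0.291 CPM), under the limit of 3 counts. Npas4 also ranged widely, from 0.139 through 2.42 to 5.55 CPM in wild type and from 1.19 through 2.05 to 4.38 CPM in knockout. Its lowest value rested on 5 counts in library 682 (interval 0.0450 to 0.323 CPM).

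Arc was the steadiest, with 27.5, 30.4 and 40.6 CPM (lowest, median, highest) in wild type and 20.6, 24.7 and 30.5 CPM in knockout. In 4 of the 6 knockout libraries Arc lay below every wild-type library. Nr4a1 spanned 7.93, 11.2 and 15.8 CPM in wild type and 8.69, 12.1 and 15.6 CPM in knockout, so its ranges nearly coincided. Ier2 spanned 0.987, 1.47 and 2.69 CPM in wild type and 0.703, 1.02 and 2.02 CPM in knockout, with large overlap.

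**Figure D1:**
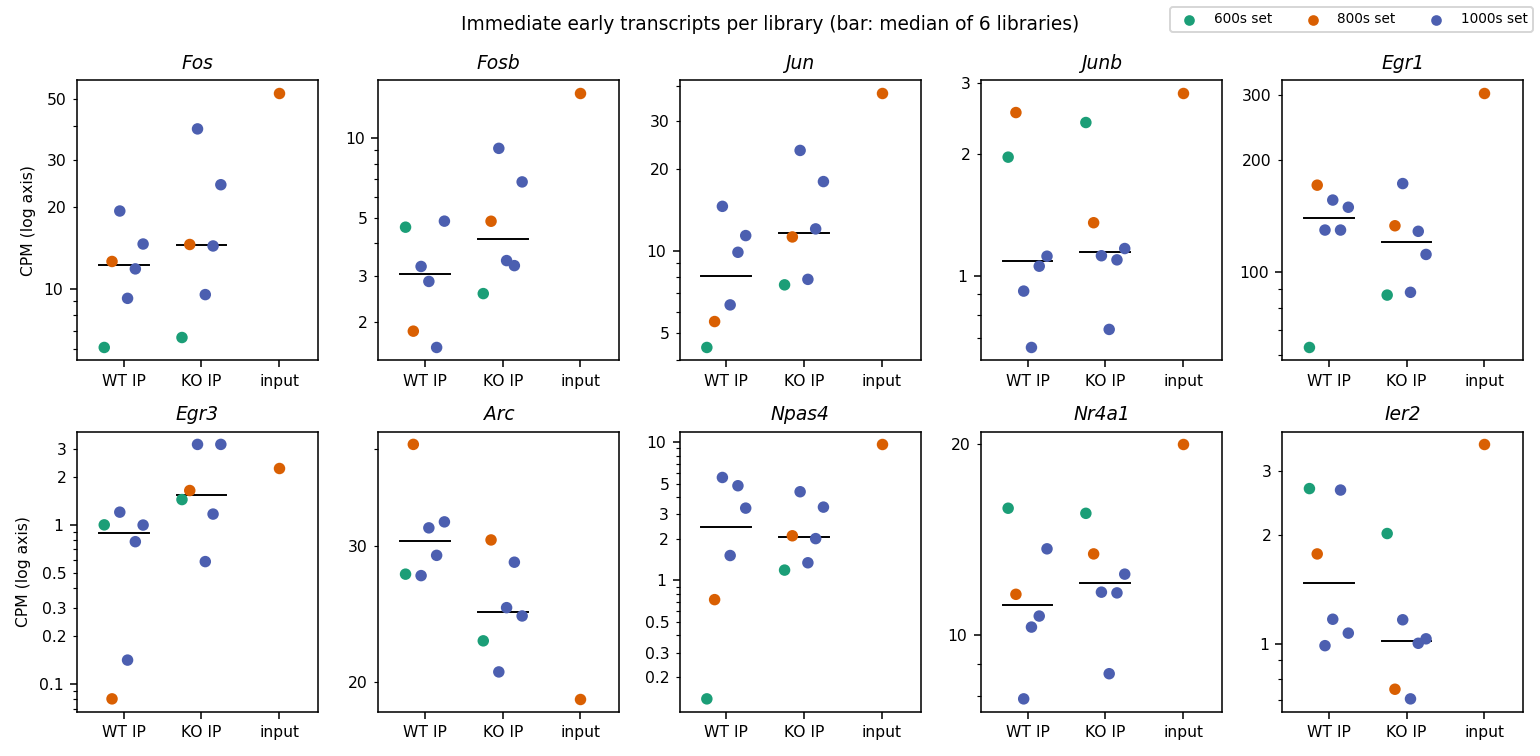
Level of each of the 10 immediate early transcripts per library, in CPM on a log axis, for the wild-type IP (6), knockout IP (6) and input (1) libraries; points are coloured by library set and bars are medians. The input lies above all wild-type IP libraries for 9 of the 10 genes and below all 12 IP libraries for Arc.

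The comparison of IP with input asks which of these transcripts were carried by the tagged ribosomes relative to the whole dissected tissue. Fos, Fosb and Jun were depleted from the purified RNA, and Arc was the 1 member above the input. Because only 1 input library was analysed, this comparison follows a rule of size and has no replicate check of the input. The input was counted over 37328 symbols and the IP libraries over 32531 or 24454. Junos, which shares 232 exon bases with Jun, was among the symbols of the input only. The part of these differences in the ratios was not tested. The measure is the log2 of (CPM + 1) in an IP library over (CPM + 1) in the input, for genes of at least 5 CPM in the input or as the wild-type IP mean. Of the 10 members, 7 reached that level, and Egr3, Ier2 and Junb did not. Of the 7, 3 were at least 2 times lower than input in every wild-type IP library, where 11.1% of 11434 genes met the rule. In the other direction the count was 0 of 7, against 4.71%.

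Jun stood at 37.9 CPM in the input (exact Poisson 95% interval 36.1 to 39.7), and its log2 ratio over the 6 wild-type IP libraries ran from -2.84 through a median of -2.12 to -1.32. Fos stood at 52.8 CPM in the input (50.7 to 55.02) and had ratios of -2.92, -2.02 and -1.40 (lowest, median, highest). Fosb stood at 14.9 CPM (13.8 to 16.1) and had ratios of -2.61, -1.97 and -1.44. At the median these AP-1 subunits were thus 4.35, 4.06 and 3.91 times below the input, at percentiles 7.83, 8.66 and 9.17 of all genes. Knockout IP libraries gave medians of -1.62 for Jun, -1.80 for Fos and -1.64 for Fosb, and library 1099 came within a factor of 2 of the input for all of them (-0.68, -0.43 and -0.64). None of the 3 genes therefore met the rule in the knockout libraries, though all 6 of these lay below the input for each gene.

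Arc stood at 19.0 CPM in the input (17.8 to 20.3) and above that in all 12 IP libraries. Its wild-type log2 ratios were 0.51, 0.65 and 1.06 (lowest, median, highest), a median fold of 1.57 at the 83.9th percentile of all genes, and its knockout median was 0.36. Npas4 had wild-type ratios of -3.22, -1.69 and -0.70, and Egr1 of -2.25, -1.12 and -0.82, so both were below the input in 6 of 6 libraries without meeting the rule. Nr4a1 lay nearest to the input among the depleted members that reached the level, with ratios of -1.23, -0.79 and -0.32. Ier2, Junb and Egr3 had medians of -0.90, -0.88 and -0.79 at 3.56, 2.83 and 2.27 CPM in the input, where the added 1 CPM shrinks the ratio. Scaling by TMM in place of gene totals moved the median of all genes from -0.07 to 0.09, a shift of 0.16 that turned no member's direction. With the spread of the IP libraries standing in for that of the single input, edgeR's quasi-likelihood test gave Benjamini-Hochberg adjusted p of 0.0291 for Fosb, 0.0335 for Jun, 0.0356 for Arc and 0.0586 for Fos in wild type. For the knockout IP libraries against the same input, this edgeR test gave adjusted p of 0.179, 0.189, 0.178 and 0.2335 in that order. The share of all genes that passed either comparison is not given here.

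For comparison, 8 of 8 oligodendrocyte markers and 6 of 8 astrocyte markers were at least 2 times lower than input in every wild-type IP library. Their summed levels were 137 to 679 CPM and 154 to 976 CPM in wild-type IP, against 2762 and 2135 CPM in the input. Markers of other neurons were lower too: 4 of the 5 GABAergic markers that reached the level, and 6 of 8 lateral habenula and thalamic markers, by the same rule. GABAergic markers summed to 15.9 to 156 CPM in wild-type IP against 645 CPM in the input, and lateral habenula and thalamic markers to 2176 to 3053 CPM against 5585 CPM. Of the microglial markers that reached the level, 4 of 5 were lower by the rule, but of the endothelial and mural ones 0 of 3 were. The 8 endothelial and mural markers summed to 7.08 to 25.6 CPM in wild-type IP and 19.45 CPM in the input. The part of these glial, vascular and neuronal markers in the input's high Fos, Fosb and Jun was not tested.

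**Figure D2:**
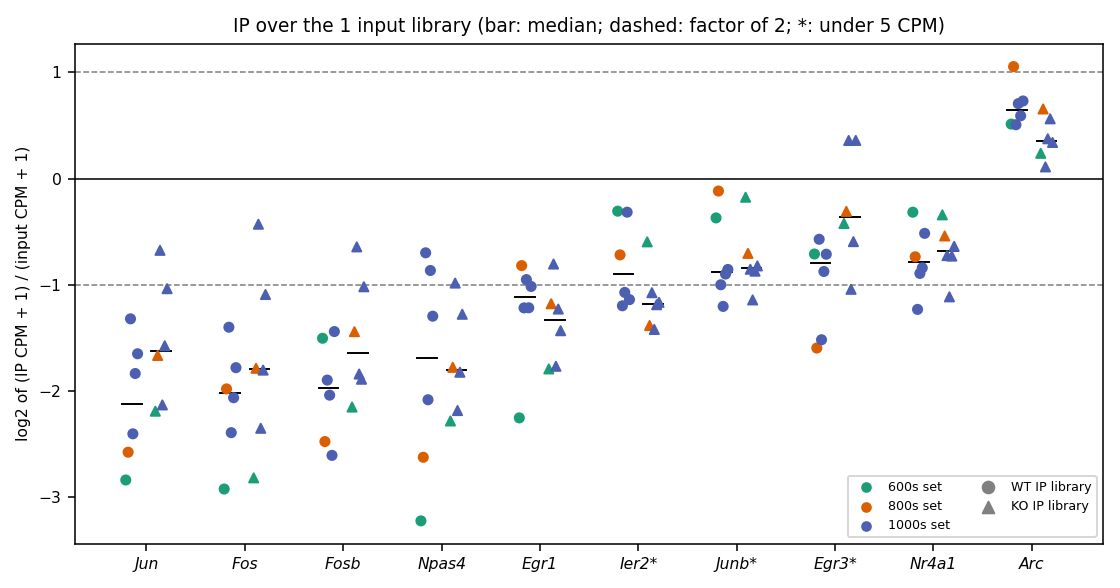
Log2 of (CPM + 1) in each IP library over (CPM + 1) in the single input library for the 10 genes; points are libraries of each genotype. Arc lies above 0 in all 12 libraries, while Fos, Fosb and Jun lie below -1 in every wild-type library.

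Levels varied between pools far more for some members than for others. After set and genotype means were removed, the SD of log2 CPM was 1.22 for Egr3, 1.03 for Npas4, 0.75 for Fosb and 0.65 for Fos, at percentiles 97.0, 93.9, 86.2 and 81.7 of the 14317 genes tested. Arc was at the other end, with an SD of 0.12 at percentile 3.26, where the median of all genes was 0.34. Egr1 (percentile 48.0), Junb (55.1), Ier2 (68.6) and Jun (76.7) were nearer the middle, and Nr4a1 was at 28.6.

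The sets of libraries differed in several members before any adjustment. In the edgeR model with set and genotype, 0 of 10 members passed an adjusted p of 0.05 for the set, where 11.4% of all tested genes did. At an unadjusted p under 0.05 the count was 6 of 10, against 35.6%. DESeq2's likelihood ratio test called Fos, Jun, Junb, Egr1 and Npas4, 5 of 10 against 27.6% of genes. Junb was the 1 member whose 8 libraries of the 1000s set all lay below the 4 earlier ones (7.55% of all genes), at 0.665 to 1.17 CPM against 1.35 to 2.54 CPM. No member had its 8 later libraries all above the earlier ones (6.29% of all genes). For Junb this was a log2 difference of -1.01 ± 0.29 (SE; edgeR adjusted p = 0.0780). Npas4 differed the other way by 1.92 ± 0.61 on the log2 scale (adjusted p = 0.0942 by edgeR), Jun by 0.97 ± 0.31 and Fos by 0.96 ± 0.36. Egr1 differed chiefly between the 600s set and the rest, by 1.02 ± 0.30 for the 800s set and 0.89 ± 0.25 for the 1000s set (log2, SE). Glial markers moved with the set as well: the median log2 difference of the 1000s set from the earlier ones was 2.06 over 8 astrocyte and 1.18 over 8 oligodendrocyte markers, against 0.02 over all genes. With the non-neuronal score in the model, the set difference was 0.03 for Jun, -0.18 for Fos and 0.82 for Npas4, while that of Junb was -1.39. Without libraries 1091, 1099 and 1102 it was 0.55 for Jun, 0.39 for Fos, 1.61 for Npas4 and -1.13 for Junb, and 2 members passed edgeR's adjusted threshold for the set. The share of all genes that passed in that fit is not given here, so the count has no background to be read against. The tables of the earlier and later sets list different numbers of symbols (32531 and 24454), and the part of this in the set differences was not tested.

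Within the 1000s set, Fos, Jun and Egr3 were at the same rank in every one of the 8 libraries on the log2 CPM scale. For Fos and Jun, Pearson's r was 0.98 and Spearman's rho 1. The exact permutation p was 2.48e-05 for r, the smallest that 40320 orders can give, and 0.000537 after adjustment over 65 relations, and r was 0.97 without the 2 libraries farthest from the median. For Jun and Egr3, r was 0.95 (rho 1, exact permutation, adjusted p = 0.00343) and 0.94 without 2 libraries. For Fos and Egr3, r was 0.88 (rho 1, exact permutation, adjusted p = 0.0202) and 0.77 without 2 libraries. Junb followed Egr3 with r = 0.88 and rho = 0.81 (exact permutation, adjusted p = 0.0108 for r), and with 0.75 without 2 libraries. These were the 4 of 45 member pairs that passed for r, and 36 of the 45 pairs were positive. The share of pairs among all tested genes with such r was not counted, so the relations are not shown to be particular to the members. Arc ran against Fos (r = -0.65), Jun (-0.65) and Egr3 (-0.68) without passing the adjusted threshold. Without the 2 farthest libraries these were 0.12, 0.01 and -0.17. With the mean of each genotype removed, r over all 8 libraries was -0.59, -0.55 and -0.50, again without passing. Leaving out the 2 libraries farthest on that scale gave -0.61, -0.59 and -0.71. Ier2 had r of 0.01 with both Fos and Jun. All values of a library share its depth and its scaling.

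**Figure D3:**
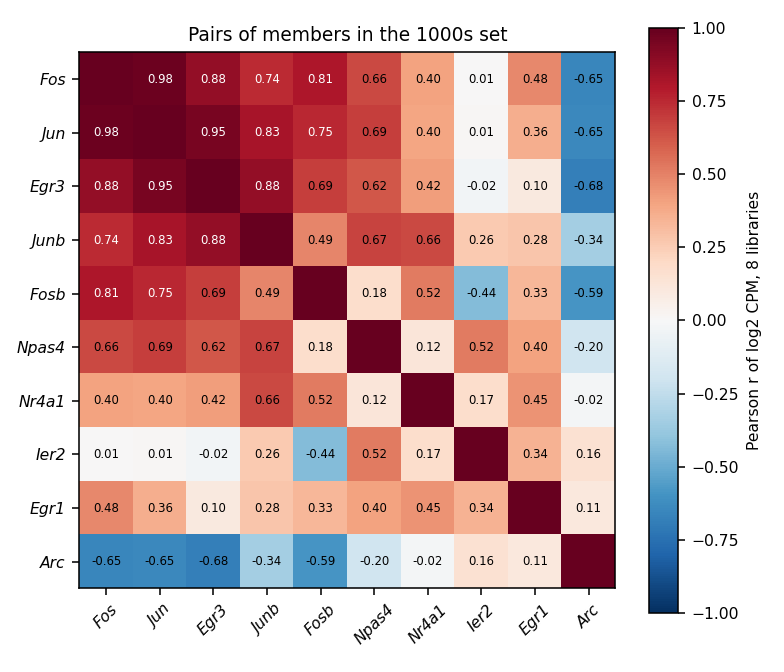
Pearson's r of log2 CPM for every pair of the 10 genes over the 8 libraries of the 1000s set. Fos, Jun, Egr3 and Junb form the block of high positive values (0.74 to 0.98), and Arc has negative values with 7 of the other 9 genes.

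The same 3 genes followed the glial and vascular (non-neuronal) markers. Their score, a mean of log2 CPM values, ran from 0.612 in library 1092 to 3.32 in library 1099, and r was 0.99 with Jun, 0.96 with Egr3 and 0.95 with Fos (rho 1 for each). The exact permutation p adjusted over the 65 relations was 0.000537 for Jun, 0.000537 for Egr3 and 0.00115 for Fos. Without the 2 farthest libraries, r was 0.99, 0.95 and 0.98. For the medial habenula markers the signs were opposite, with r of -0.98 for Jun, -0.96 for Fos and -0.95 for Egr3. How many of all tested genes follow either score this closely was not counted. Following the non-neuronal markers is not shown to be particular to glial and vascular RNA. The mean log2 CPM of GABAergic neuron markers was likewise lowest in library 1092 (-0.999) and highest in libraries 1102 (1.57) and 1099 (1.39). Its relation to the members was not tested. Junb (r = 0.83 with the non-neuronal score, exact permutation, adjusted p = 0.0656), Npas4 (0.71), Fosb (0.70), Nr4a1 (0.35), Egr1 (0.26) and Ier2 (0.03) did not pass on this scale. Arc had r = -0.65 with that score, and -0.10 without the 2 farthest libraries. After removal of genotype means these were -0.55, without passing, and -0.76. With the mean of each genotype removed, 16 of the 65 relations passed, against 10 before. On that scale the permutation p is approximate and not exact, because centred values were permuted across genotypes. Npas4 then passed with the non-neuronal score (r = 0.96, rho 0.90, permutation, adjusted p = 0.0034 for r) and had r = 0.89 without the 2 farthest libraries. It also passed with the medial habenula score (r = -0.95) and with Egr3 (0.95), Jun (0.93) and Fos (0.87). On that scale Nr4a1 had r of 0.35 with Jun and 0.36 with Fos.

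**Figure D4:**
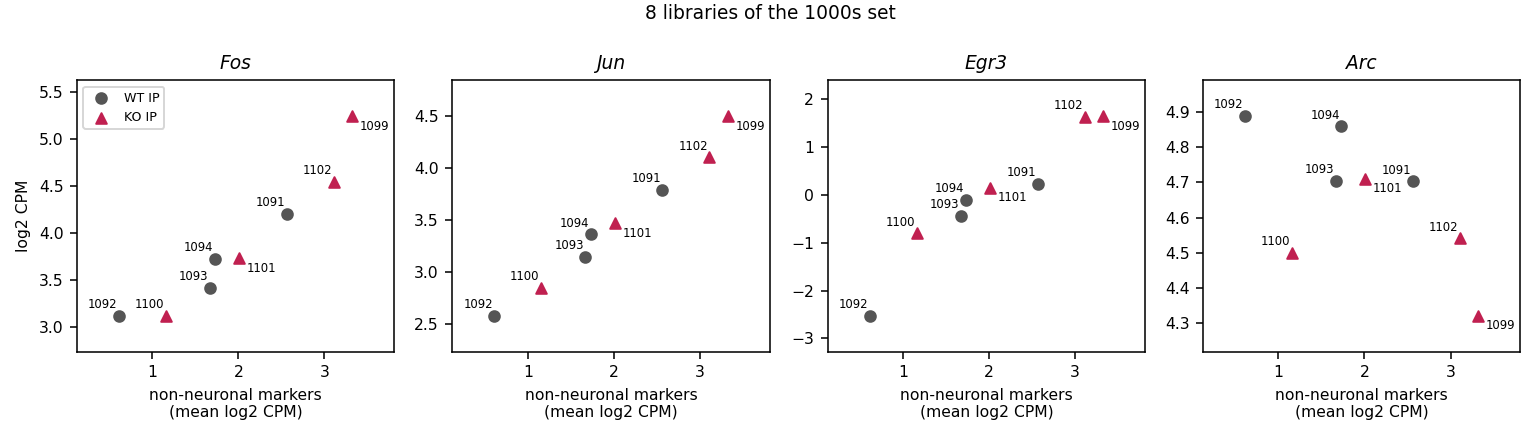
Log2 CPM of Fos, Jun, Egr3 and Arc against the mean log2 CPM of the non-neuronal markers in the 8 libraries of the 1000s set, labelled by library number and coloured by genotype. Fos, Jun and Egr3 have the library order of the marker score, and Arc is lowest in library 1099, which has the highest score.

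Among all other tested genes, those most like the mean of the 10 standardised members over these 8 libraries were 9030624J02Rik and Osbpl10 (r = 0.98 for both), Cdan1, Slc25a22 and Slco1c1 (0.97 for each). Single members had r with that mean, to which they contribute, of 0.90 for Junb, 0.87 for Jun and Fos and 0.79 for Egr3, down to 0.33 for Ier2 and -0.29 for Arc. The median of all tested genes was -0.01.

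The comparison of genotypes asks whether loss of Gpr151, an orphan G protein-coupled receptor of habenular neurons, goes with other levels of these transcripts in the purified RNA. No member passed the test: 0 of 10 had an adjusted p under 0.05 by edgeR's quasi-likelihood test, where 0.014% of the 14317 tested genes did, and the adjusted p was 0.999 for each. DESeq2 also called 0 of 10, against 0.0838% of genes. At an unadjusted p under 0.05 the count was 3 of 10 with either tool, against 3.06% of all genes with edgeR, and the 3 were Egr3, Jun and Arc. The median log2 difference (knockout minus wild type) over the 10 members was 0.20, and 7 of 10 were above 0. Over all tested genes the median was 0.00 and 7216 of 14317 were above 0.

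Egr3 had the largest difference, 1.59 ± 0.62 on the log2 scale (SE; 95% interval 0.23 to 2.94; unadjusted p = 0.0251, adjusted p = 0.999 by edgeR). In 4 of 6 knockout libraries it lay above all wild-type ones, which held for 1.5% of genes (4 or more of 6). Its difference was 0.52 in the 600s, 3.71 in the 800s and 1.36 in the 1000s set, the second of these against the library with 2 counts. Jun differed by 0.68 ± 0.28 (0.07 to 1.29; edgeR unadjusted p = 0.0307), with 0.76, 1.00 and 0.51 in the 3 sets and 2 of 6 knockout libraries above all wild-type ones, as for 27.5% of genes (2 or more). Fosb differed by 0.71 ± 0.39 (-0.15 to 1.56) and Fos by 0.53 ± 0.33 (-0.18 to 1.24), both with intervals that include 0.

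The non-neuronal marker score was 1.30 ± 0.829 (SD, n = 6) in wild type and 1.84 ± 1.18 in knockout, a difference that was not tested. It was lower in knockout in the 600s set (0.488 against 0.764). In the 800s set (0.964 against 0.431) and the 1000s set (means of 2.40 and 1.64) it was higher. Astrocyte markers summed to 154 to 976 CPM in wild-type and 157 to 1768 CPM in knockout IP libraries, oligodendrocyte markers to 137 to 679 and 194 to 1305 CPM, and GABAergic neuron markers to 15.9 to 156 and 52.7 to 328 CPM. Of the 6 GABAergic markers tested, 6 were higher in knockout at an unadjusted p under 0.05 and 0 at an adjusted one (edgeR). None of the 8 markers in any of these lists was at 0 in every IP library. With that score added to the model, the log2 difference was 0.79 for Egr3, 0.30 for Jun, 0.27 for Fosb and 0.01 for Fos. Without libraries 1091, 1099 and 1102 it was 1.08 for Egr3, 0.47 for Jun, 0.17 for Fosb and 0.08 for Fos, and without library 1099 alone it was 0.20 for Fos and 0.43 for Fosb.

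Arc was the member with the narrowest interval and a lower level in knockout, at -0.29 ± 0.10 on the log2 scale (95% interval -0.52 to -0.07; unadjusted p = 0.0152, adjusted p = 0.999 by edgeR). Knockout pools averaged 25.3 ± 3.70 CPM and wild-type pools 31.5 ± 4.91 CPM (SD, n = 6). The difference was -0.28, -0.43 and -0.27 in the 600s, 800s and 1000s sets, -0.26 with the non-neuronal score in the model and -0.27 without the 3 libraries. It had the knockout libraries below all wild-type ones in 4 of 6, which held for 1.61% of genes (4 or more), and genotype accounted for 41.2% of the variance of its log2 CPM, at percentile 99.1 of all genes. Of 13 medial habenula markers, which include the targeted Gpr151, 13 were also below 0, with a median of -0.23, and their part in the Arc difference was not tested.

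Ier2 differed by -0.63 ± 0.32 (-1.33 to 0.07), and by -0.37 without library 1093. For this gene 3 of 6 knockout libraries lay below all wild-type ones on the log2 CPM scale, as for 6.95% of genes (3 or more). Npas4 differed by 0.30 ± 0.53, with 2.74, 1.46 and -0.41 in the 3 sets, Nr4a1 by 0.10 ± 0.15, Junb by 0.02 ± 0.29 and Egr1 by -0.07 ± 0.17. The interval of Nr4a1 ran from -0.24 to 0.43 and that of Egr1 from -0.45 to 0.31, so that differences beyond those sizes lie outside them. Whether the genotype difference itself changed between the earlier sets and the 1000s set was tested as an interaction. No member passed (0 of 10, as 0 of 14317 genes by edgeR), and Npas4 came closest, at -2.60 ± 0.93 (unadjusted p = 0.0172, adjusted p = 1), the 1 member among the 2.27% of genes with an unadjusted p under 0.05.

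**Figure D5:**
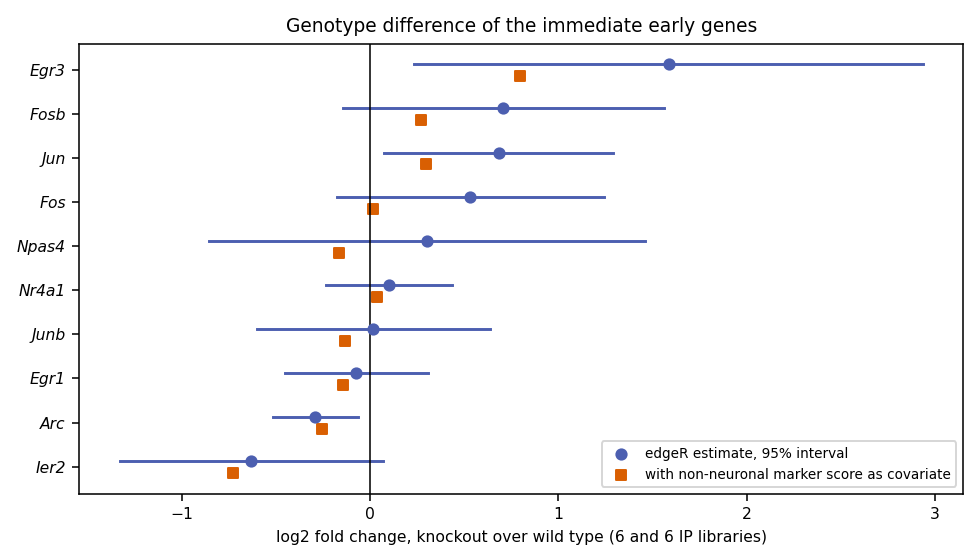
Log2 difference of knockout from wild-type IP libraries for each of the 10 genes by edgeR, with 95% intervals, beside the estimate with the non-neuronal score in the model (squares). Intervals of Egr3, Jun and Arc exclude 0 before adjustment, and the values of Fos and Fosb lie nearer 0 with the score (0.01 and 0.27), while that of Arc goes from -0.29 to -0.26.

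Other genes of the same response were taken from fixed lists. Of 24 further immediate early transcription factors, 21 were tested for genotype, and 0 passed by edgeR. At an unadjusted p under 0.05 the count was 0, against 3.06% of all tested genes. The smallest p belonged to the orphan receptor gene Nr4a2 (-0.22 ± 0.11 on the log2 scale) and to Nfil3 (0.39 ± 0.22), and the list's median was 0.12. Against input, 15 of the 24 reached the level, 1 was at least 2 times higher and 4 at least 2 times lower in every wild-type IP library. Among all genes that reached it, 4.71% were higher and 11.1% lower by this rule. Nr4a2, a close relative of Nr4a1, was the higher one, with a median log2 ratio of 3.04 (2.84 to 3.09) at 1264 ± 87.3 CPM (SD, n = 6) against 157 CPM in the input. Bhlhe40 (-2.37), Fosl2 (-1.84), an AP-1 subunit, and Crem (-1.65) were the lowest. Between sets, 3 of 21 passed by edgeR, where 11.4% of all genes did: Nr4a3, higher in the 1000s set by 2.01 ± 0.21, and Srf and Jund, lower by -0.90 ± 0.19 and -0.84 ± 0.20.

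Of 28 immediate early and delayed effectors, 27 were tested for genotype and 0 passed by edgeR. At an unadjusted p under 0.05 there were 3, all higher in knockout, against 3.06% of all tested genes in either direction. Vgf, which encodes a secreted neuropeptide precursor, differed by 0.85 ± 0.36 and Trib1, a pseudokinase gene, by 0.51 ± 0.20 on the log2 scale. Against input, 23 reached the level, with 2 higher and 9 lower in every wild-type IP library, where 4.71% and 11.1% of all genes were. Nptx2, a synaptic pentraxin, had a median log2 ratio of 2.34 (1.47 to 2.70) and Sik1, a salt-inducible kinase, 1.68 (1.16 to 1.78). The lowest were the phosphatase genes Dusp14 (-2.40) and Dusp6 (-2.38) and Bdnf (-2.37), the neurotrophin gene. The list thus held both enriched and depleted transcripts, as the 10 members did for Arc and the AP-1 subunits in direction.

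Of 30 genes of the kinases and factors that signal to immediate early genes, 30 were tested and 0 passed for genotype by edgeR. At an unadjusted p under 0.05 there was 1, against 3.06% of all tested genes. It was Camkk1 (0.61 ± 0.21), a calcium/calmodulin-dependent kinase kinase. Against input, 0 were at least 2 times higher and 2 at least 2 times lower in every wild-type IP library, against 4.71% and 11.1% of all genes. The lowest medians belonged to Mef2c (-3.48), Camk4 (-2.70) and Camk2a (-2.09), and the highest to Rps6ka3 (0.96). Between sets, 3 of 30 passed by edgeR, again beside 11.4% of all genes. The calcineurin subunit gene Ppp3cb was higher in the 1000s set by 2.08 ± 0.17 and the MAP kinase gene Mapk3 differed by -0.65 ± 0.15 on the log2 scale, while Elk4 passed with -0.07 ± 0.15 between the 1000s and the earlier sets, since the test covers both set terms. Medians of the log2 ratio to input were -0.05 for the further transcription factors, -0.64 for the effectors, -0.15 for the signalling genes and -0.07 for all genes.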

How the data were processed

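Members and lists were chosen with earlier results of these data known. Each library's table, as the authors deposited it, holds whole-number read counts by gene symbol; STAR 2.3.0e, HTSeq, DESeq2 and the mm10 build are named per the submitters' processing notes. The strand setting and gene annotation: not given in the sources used here. SPIA cDNA was made with the Ovation V2 kit, per the labels' protocols. Reads assigned to several genes made up 3.98% of alignments in the input and 0.581% to 1.36% in IP libraries. CPM divided counts by the total over the 22682 symbols shared by 13 tables, and RPKM used GENCODE M21 exon lengths. Groups followed the labels, and replicates are separate pools of mice.

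Genotype, set and their interaction were tested with edgeR 4.0.16 (R 4.3.3) on the 23857 symbols shared by 12 IP tables: filterByExpr (minimum count 10, total 15), TMM, robust quasi-likelihood, model with set and genotype, two-sided p with Benjamini-Hochberg adjustment over 14317 genes, threshold 0.05. DESeq2 1.42.0 was an alternative. Log2 CPM used a prior count of 2. Correlations used two-sided permutation over all orders of 8 libraries, which is approximate where genotype means were removed. The non-neuronal score averages log2 CPM of glial and vascular markers. All 10 members were named; from other lists, genes past the threshold by fold, else the 2 smallest p, and for input the 3 highest and lowest medians; the 5 genes of like pattern were taken by r. Scripts were tested on simulated data. Alternatives changed filter, scaling, model terms, libraries and fold rule.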

Additional observations from a re-analysis of the deposited data

Results flagged for a closer look

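Of 20 groups of 6 libraries (10 genes in 2 genotypes), 3 held a library far from the other 5 by Dixon's criterion (gap over range above 0.625). Chance gives about 1 in 20 for groups drawn alike, but each of these groups mixes the 3 library sets, so that rate does not hold here. Junb was highest at 2.40 CPM in knockout library 683 (gap over range 0.628), and Ier2 was highest at 2.02 CPM in that library (0.649). Arc was highest at 40.6 CPM in wild-type library 852 (0.637). Each of these libraries is the 1 library of its set in its group, and earlier libraries of the other genotype were high too: Junb was at 1.97 CPM in 682 and 2.54 CPM in 852, Ier2 at 2.69 CPM in 682 and Arc at 30.5 CPM in 855.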

How the results depend on the processing

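No paired analysis was possible because replicate numbers follow accession order and pair no libraries; the library set was in the main model instead. No member passed the adjusted threshold for genotype under any alternative run (adjusted p 0.650 to 1 over members and alternatives, edgeR and DESeq2). Members at an unadjusted p under 0.05 numbered 3 in the main model, 0 in the 1000s set alone, 1 in the 600s and 800s sets alone, 1 with the non-neuronal score in the model, and 1 to 4 when 1 library was left out; it was 1 without wild-type replicate 2, or without knockout replicate 2, 3 or 6 (libraries 852, 855, 1099 and 1102). Over all genes, 2 passed, against 1 with a filter of 1 CPM in 6 libraries, 0 in the 1000s set alone, 1 without libraries 1091, 1099 and 1102 (an alternative chosen after seeing the data), 12 with DESeq2, and 0 to 2 when 1 library was left out (0 without library 683).

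Members past the threshold for the set numbered 0, against 1 with no genotype term, 2 without the 3 libraries, 5 with DESeq2 and 0 to 4 when 1 library was left out (1 without library 1099, 4 without library 1100). Counts over all genes are not given here for the fits with no genotype term and without the 3 libraries. Over all genes 1636 passed, against 574 with the covariate, 3958 with DESeq2 and 342 to 3052 when 1 library was left out (342 without library 683, 3052 without library 1100, and lower by over 1.5 times also without 682, 852, 855, 1094, 1101 or 1102).

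Small genotype differences turned sign. Junb (0.02) was -0.0096 with totals that omit Rn45s, -0.041 with no set term, -0.31 in the 600s and 800s sets, -0.13 with the covariate, -0.16 without the 3 libraries and -0.089 to 0.19 when 1 library was left out. Npas4 (0.30) was -0.14 with no set term, -0.42 in the 1000s set, -0.17 with the covariate and -0.093 to 0.56 when 1 library was left out (libraries 682 or 683 for the negative values). Egr1 (-0.07) was 0.039 in the 600s and 800s sets and -0.22 to 0.027 when 1 library was left out. Nr4a1 (0.10) was -0.059 without the 3 libraries. The difference of the 1000s set from the earlier ones turned with the covariate for Fos (-0.18), Fosb (-0.44), Egr3 (-1.45) and Arc (0.022). Without the 3 libraries it turned for Fosb (-0.064) and Egr3 (-0.17), and for Fosb it was -0.026 to 0.88 when 1 library was left out. The cause was not tested.

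Against input, 3 members were lower by the rule, against 5 at a factor of 1.5, 0 at a factor of 4 and 0 with the knockout libraries. None was higher, against 1 with the 800s set alone and 1 by edgeR, in both cases Arc. Shares of all genes under these alternatives to the rule are not given here. Of the relations, 10 passed, against 16 with genotype means removed, chosen after seeing the data. The lowest levels (Egr3 and Npas4) rest on as few as 2 and 5 counts, and the single input limits every comparison with it.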
